A study of Mus musculus with 7 samples.

Results

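The genes described here are 9 regulators and products of fat cells, namely the transcription factors Cebpb, Cebpd, Cebpa and Pparg, the adipocyte products Adipoq and Fabp4, and the lipid-handling genes Lpl, Cd36 and Apoe. They were chosen by name, and all 9 were measured, among 12393 genes in all. The platform annotation gave them 17 probe sets. The brightest probe set of a gene, by its mean over the 7 arrays, stands for the gene, and the others are given beside it.

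RNA came from bone marrow stromal cells sorted by flow cytometry from OsxCre-mCherry;OcnCre-Topaz double transgenic mice of 4 to 6 weeks of age, 6 days after tamoxifen. Cells marked in red through the osterix promoter (Osx+, 4 arrays) were compared with cells marked in green through the osteocalcin promoter (Ocn+, 3 arrays). Both groups carried both transgenes and both received tamoxifen, so neither is an untreated control. Each mark depends on the promoter that drove Cre, and the labels do not say how it relates to promoter activity on the day of the sort. The labels do not say whether each array came from a separate animal, so the spread behind each p-value is that between arrays and may be technical. Doubly marked cells were not analysed here.

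Adipocytes and osteoblasts arise from related stromal progenitors of the marrow. In the textbook order of adipogenesis the CCAAT/enhancer-binding proteins C/EBPβ and C/EBPδ (Cebpb, Cebpd) come first and induce C/EBPα (Cebpa) and the nuclear receptor PPARγ (Pparg), which then sustain each other and switch on genes such as Adipoq and Fabp4. Several of these genes also work elsewhere in marrow: C/EBP factors in granulocytes and macrophages, Fabp4 and Cd36 in endothelium, and Lpl, Cd36 and Apoe in macrophages. In bulk samples, fewer cells of a type and less RNA per cell cannot be told apart.

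Median log2 signals of the 7 arrays lay between 8.25 and 8.35. The labelled cell type was checked against osteoblast markers. Of 13 such markers 8 were measured (Runx2, Spp1 and the osteocalcin genes were not analysed here), and their mean log2 signal ran from 12.99 to 13.53 in Ocn+ arrays and from 12.62 to 13.56 in Osx+ arrays. Sp7, which encodes osterix, was not brighter in the Osx+ arrays (12.47 ± 0.31, SD, n = 4) than in the Ocn+ arrays (12.65 ± 0.35, SD, n = 3). Arrays fell into a high-Xist class (2 Ocn+ and 2 Osx+, log2 signal of Xist from 12.33 to 12.96) and a low-Xist class (1 Ocn+ and 2 Osx+, from 4.87 to 5.79). Xist is transcribed from the inactive X chromosome of female cells. Differences within these classes are given beside the results they touch, and the low-Xist ones rest on Ocn+ replicate 1 alone.

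Of the 9 genes, Cebpb and Adipoq were brighter in every Ocn+ array than in any Osx+ array. Differences of means, Ocn+ minus Osx+, were above 0 for 5 genes (Adipoq, Fabp4, Cebpb, Cebpd and Pparg), beside 52.7% of all genes, and below 0 for 4 (Lpl, Cebpa, Cd36 and Apoe). With limma's moderated test and Benjamini-Hochberg adjustment over all genes, 0 of 9 had an adjusted p under 0.05, beside 0 of all 12393 genes (0%). An unadjusted p under 0.05 was found for Cebpb and Adipoq, 2 of 9, both higher in Ocn+ cells, beside 658 of all genes (5.31%, or 3.48% counting only those higher in Ocn+ cells). With the Xist class as a term in the model, 1988 genes (16.0%) and 4 of the 9 (Cebpb, Adipoq, Cebpd and Fabp4) had an unadjusted p under 0.05, and limma called 0 of either. The groups did not overlap for Cebpb and Adipoq, beside 855 of all genes (6.90%, or 4.37% counting only those higher in Ocn+ cells). The median difference was 0.32 log2 units over the 9 genes and 0.018 over all genes.

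**Figure D1:**
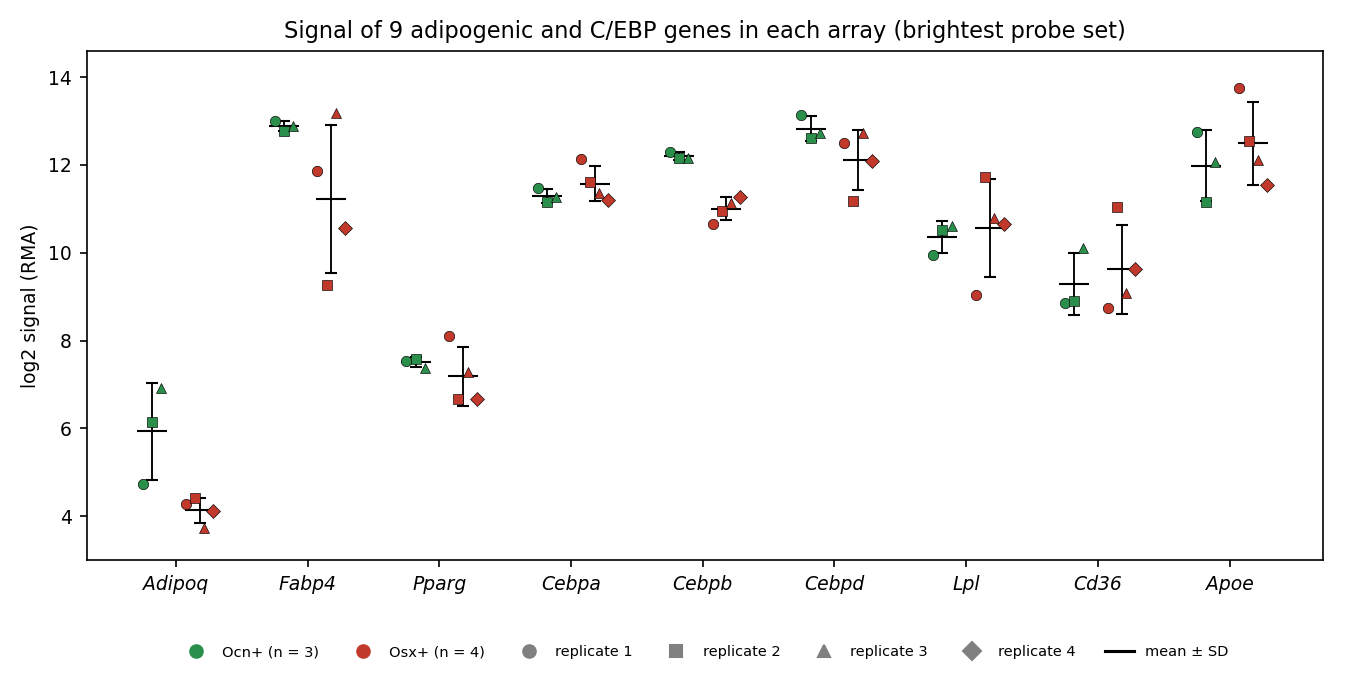
Log2 signal (RMA, vertical axis) of the brightest probe set of each of the 9 genes in each array, Ocn+ in green (n = 3) and Osx+ in red (n = 4), with marker shape for the replicate and bars for the mean ± SD. Green and red points are separate for Adipoq and Cebpb and overlap for the other genes, and the Osx+ arrays of Fabp4 spread from 9.26 to 13.18.

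Cebpb encodes the early activator C/EBPβ. Its log2 signal was 12.30, 12.16 and 12.15 in Ocn+ replicates 1 to 3. In Osx+ replicates 1 to 4 it was 10.66, 10.96, 11.12 and 11.27. The Ocn+ arrays lay close together, and every one of them was above the brightest Osx+ array. The group means were 12.20 ± 0.08 (SD, n = 3) and 11.00 ± 0.26 (SD, n = 4), a 2.30-fold brighter signal in Ocn+ cells. The log2 difference was 1.20 (SE 0.19, 95% interval 0.76 to 1.64), with a limma adjusted p of 0.556. By unadjusted p (0.000315) Cebpb stood at rank 6 among the 12393 genes. A 2-sided exact permutation test over arrays gave 0.0571, the smallest p that 3 against 4 arrays allow.

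The other Cebpb probe set was dimmer and also separated the groups, with 7.80, 8.17 and 8.09 in Ocn+ arrays and 6.77 to 7.66 in Osx+ arrays. Its difference was 0.66 (SE 0.25). Leaving out any single array moved the Cebpb difference only between 1.09 and 1.29, and none of these fits called it (limma adjusted p from 0.191 to 1). In the high-Xist arrays it was 1.04 and in the low-Xist arrays 1.41. With arrays weighted by their fit, from 0.236 (Osx+ replicate 1) to 6.02 (Ocn+ replicate 2), 97 of the 12393 genes were called. Cebpb was the only 1 of the 9 genes among them (difference 1.03, limma adjusted p = 0.0275). Over all other settings tested its adjusted p ran from 0.0986 to 1.

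Since Cebpb and Adipoq were the genes whose groups did not overlap, the 250 bases before their transcription start are shown, 5′ to 3′, from RefSeq on GRCm38.p6. Such windows were found for 6 of the 9 genes, and those of Fabp4, Cebpd and Lpl were not. Capitals mark matches to any of 4 short motifs, searched on both strands and without overlap between motifs in these windows. The CCAAT box was searched as CCAAT. A part of the cAMP response element was searched as TGACG, and the whole element was not searched. The TATA box was searched as TATAAA. The core of a C/EBP site was searched as TTGCNNAA. The Cebpb window is chr2:167688665-167688914 and the Adipoq window chr16:23146286-23146535, both on the plus strand.
Cebpb: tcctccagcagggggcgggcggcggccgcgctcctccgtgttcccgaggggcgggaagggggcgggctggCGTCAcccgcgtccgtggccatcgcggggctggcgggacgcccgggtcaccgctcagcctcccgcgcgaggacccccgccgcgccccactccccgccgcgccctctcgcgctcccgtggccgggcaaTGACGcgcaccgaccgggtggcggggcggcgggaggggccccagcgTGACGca
Adipoq: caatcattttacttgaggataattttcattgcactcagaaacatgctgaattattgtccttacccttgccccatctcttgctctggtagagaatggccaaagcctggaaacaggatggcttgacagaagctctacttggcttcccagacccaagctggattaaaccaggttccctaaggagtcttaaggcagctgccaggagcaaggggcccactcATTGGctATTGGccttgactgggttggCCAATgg
The Cebpb window is rich in G and C (81.6% of bases) and holds TGACG 3 times, first bases 180, 53 and 7 bases before the start, and none of the other motifs. TGACG occurs in 17.8% of all 32851 promoter windows of this length, whose median G and C content is 52.4%. Windows of like G and C content were not compared. The Adipoq window (48.8% G and C) holds CCAAT 3 times, at 34, 27 and 7 bases before the start, and none of the others. CCAAT occurs in 33.8% of all windows, TATAAA in 12.4% and TTGCNNAA in 9.56%. A match describes the letters and not the binding of a factor, which these arrays do not measure.

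Cebpd, the partner of Cebpb in the early wave, gave 13.14, 12.60 and 12.72 in Ocn+ replicates 1 to 3. Osx+ replicates 1 to 4 gave 12.49, 11.17, 12.72 and 12.09. The groups overlapped, because Osx+ replicate 3 lay above Ocn+ replicate 2. The difference was 0.71 (SE 0.38, 95% interval -0.19 to 1.60, limma adjusted p = 0.999). A second Cebpd probe set gave 0.74 (SE 0.37). Without Osx+ replicate 2, the dimmest array, the difference of the first was 0.39.

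Cebpa, the factor of the differentiated adipocyte and of early granulocyte precursors, had the smallest spread of the 9 genes over the arrays. It stood at 11.48, 11.16 and 11.27 in Ocn+ arrays and at 12.13, 11.62, 11.35 and 11.21 in Osx+ arrays. Its difference of -0.28 (SE 0.25, 95% interval -0.86 to 0.31, limma adjusted p = 0.999) was within the spread of the Osx+ arrays, whose brightest was replicate 1. Without that array it was -0.092.

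The C/EBP genes were also compared within arrays as 3 pairs. This was chosen after their values were seen, so it is a description that partly restates the Cebpb values. After adjustment 0 of 3 pairs passed, but none could have. The smallest 2-sided exact permutation p that 3 against 4 arrays allow is 0.0571, already above the threshold. The p-values below therefore decide nothing, and only the shifts and the overlap are described. The log2 signal of Cebpb minus that of Cebpa was 0.83, 1.00 and 0.89 in Ocn+ arrays and -1.46, -0.66, -0.23 and 0.065 in Osx+ arrays. These did not overlap, and the shift of 1.48 had an exact permutation p of 0.0571 (2-sided, 0.0856 adjusted over the 3 pairs). For Cebpd minus Cebpa the shift was 0.98, without overlap (exact permutation p = 0.0571, adjusted 0.0856). That separation was narrow, with 1.446 in Ocn+ replicate 2 and 1.368 in Osx+ replicate 3 as the nearest values. For Cebpb minus Cebpd the shift was 0.49, with overlap (exact permutation p = 0.400). Only the change of such a difference between groups can be read, since probe sets of different genes have no common scale.

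Pparg, the nuclear receptor at the centre of adipogenesis, was a dim signal, at the 35.2th percentile of mean signal over all genes. Ocn+ arrays gave 7.54, 7.59 and 7.38. Osx+ arrays gave 8.09, 6.68, 7.28 and 6.68, so that replicate 1 lay above all Ocn+ arrays and the other 3 below them. The difference was 0.32 (SE 0.36, 95% interval -0.52 to 1.17, limma adjusted p = 0.999). Without Osx+ replicate 1 it was 0.63 and the groups did not overlap, beside 15.1% of all genes in that setting. Without Osx+ replicate 2 or Osx+ replicate 4 the difference was 0.15. High-Xist arrays alone gave 0.81 and low-Xist arrays -0.14. Whether the single Pparg probe set reads the adipocyte isoform was not tested.

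Adipoq encodes adiponectin, the hormone secreted by adipocytes and also transcribed in adipogenic marrow stroma. Its log2 signal was 4.74, 6.14 and 6.93 in Ocn+ replicates 1 to 3. In Osx+ replicates 1 to 4 it was 4.28, 4.41, 3.74 and 4.12. The groups did not overlap, with Ocn+ replicate 1 close above the highest Osx+ array and Ocn+ replicates 2 and 3 well above. The means were 5.93 ± 1.11 (SD, n = 3) and 4.14 ± 0.29 (SD, n = 4), 3.47-fold brighter in Ocn+ cells. The difference of 1.80 (SE 0.49, 95% interval 0.65 to 2.94) had a limma adjusted p of 0.731 and an exact permutation p of 0.0571.

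The Adipoq signal was near the low end of the arrays, at the 14.1th percentile of mean signal, and the lowest value of any probe set was 3.00 to 3.10 depending on the array. Without detection calls the Osx+ values cannot be placed above or below background, and the fold is one of measured signals. Leaving out Ocn+ replicate 3 gave a difference of 1.30, and leaving out Ocn+ replicate 1 gave 2.40. Within the high-Xist arrays it was 2.27 and within the low-Xist arrays 0.72. An interaction fit of group and Xist class, whose low-Xist Ocn+ arm is a single array, gave unadjusted limma p-values from 0.0346 (Adipoq) to 0.903 (Cebpa) over the 9 genes and an adjusted p of 1 for each.

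Fabp4, the fatty acid-binding protein of adipocytes and of small-vessel endothelium, spread most over the arrays. It gave 13.00, 12.78 and 12.89 in Ocn+ arrays. In Osx+ replicates 1 to 4 it gave 11.87, 9.26, 13.18 and 10.57. The Ocn+ arrays were alike, while the Osx+ arrays covered 3.92 log2 units and held both the dimmest and the brightest value. Despite a difference of 1.67 (3.18-fold), the SE was 0.84 and the 95% interval -0.32 to 3.66 (limma adjusted p = 0.999). The next brightest probe set followed it (difference 1.70, SE 0.94). The other 2 Fabp4 probe sets were near the low end, at 3.94 to 4.90, with differences of 0.16 and 0.25, and averaging all 4 gave 0.95. Without Osx+ replicate 3, the brightest array, the difference was 2.32 and the groups did not overlap, beside 13.1% of all genes in that setting. Without Osx+ replicate 2 the difference was 1.02. The high-Xist arrays gave 2.92 and the low-Xist arrays 0.47.

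Endothelial markers were also brighter on average in Ocn+ arrays. All 18 of 18 listed markers had a difference above 0, 13 of them with an unadjusted limma p under 0.05, and 0 were called. Their mean log2 signal was 9.54 to 9.86 in Ocn+ arrays and 6.47 to 8.97 in Osx+ arrays, with replicate 2 lowest and replicate 3 highest among the latter, as for Fabp4. Among the Ocn+ arrays the orders differed, since Fabp4 was brightest in replicate 1 (13.00), where the endothelial mean was lowest (9.54). The genes most like Fabp4 over the 7 arrays, by the root mean square distance between profiles centred on their means, were Egfl7 (0.36 log2 units), Sox17 (0.36) and Rasip1 (0.40), and the first 2 are on the endothelial list. The part of endothelial cells in the Fabp4 difference was not tested.

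**Figure D2:**
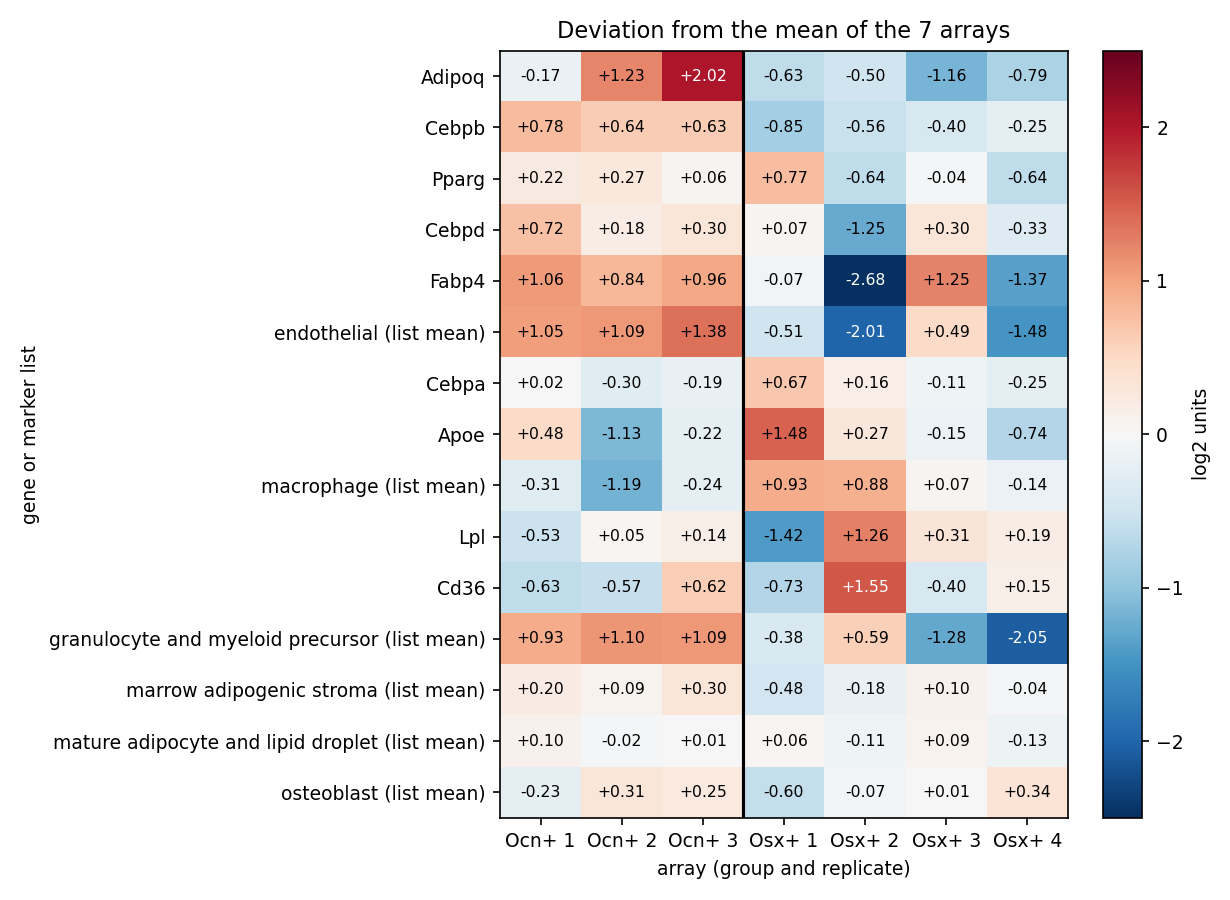
Deviation of each gene's log2 signal, or of a marker list's mean log2 signal, from its mean over the 7 arrays (columns, Ocn+ left of the line and Osx+ right), with red above and blue below the mean. Fabp4 and the endothelial list are lowest in Osx+ replicate 2, Apoe and the macrophage list are highest in Osx+ replicate 1, and Cebpb is above its mean in all Ocn+ arrays and below it in all Osx+ arrays.

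The same measure was applied to Adipoq and Apoe, which with Fabp4 varied most. The genes nearest to Adipoq were Gzma (0.37 log2 units), Tspan12 (0.39) and Inhbb (0.46). Gzma was dim as well, at 4.30, 5.10 and 7.15 in Ocn+ arrays and 3.62 to 4.17 in Osx+ arrays. Inhbb, a subunit of activin and inhibin, gave 10.26, 11.27 and 11.45 in Ocn+ arrays and 8.11 to 9.42 in Osx+ arrays (difference 2.15, SE 0.41, limma adjusted p = 0.689). For Apoe they were Pld4 (0.19), Il18 (0.22) and Nrros (0.23). With 7 arrays and 12393 genes, some profiles lie close by number alone.

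For all 3 lipid-handling genes the groups overlapped in the brightest probe set. Lpl, the lipase that frees fatty acids from lipoproteins, gave 9.94, 10.52 and 10.61 in Ocn+ arrays and 9.05, 11.73, 10.78 and 10.66 in Osx+ arrays. Osx+ replicates 1 and 2 were the extremes of the whole series. The difference was -0.20 (SE 0.58, 95% interval -1.57 to 1.18), and the other Lpl probe set gave 0.30 (SE 0.39), so the sign is not settled. It was 0.19 without Osx+ replicate 2. Without Osx+ replicate 1 it was -0.70 with no overlap, beside 15.1% of all genes in that setting.

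Cd36, the fatty acid and thrombospondin receptor, gave 8.85, 8.91 and 10.10 in Ocn+ arrays and 8.75, 11.03, 9.07 and 9.63 in Osx+ arrays. The groups overlapped, with Osx+ replicate 2 brightest. The difference was -0.34 (SE 0.59, 95% interval -1.72 to 1.05), and 0.13 without Osx+ replicate 2. A second probe set gave -0.40 (SE 0.43). The third and dimmest did not overlap, at 5.33 to 6.70 in Ocn+ arrays and 6.70 to 8.21 in Osx+ arrays, the nearest arrays being Ocn+ replicate 3 (6.697) and Osx+ replicate 4 (6.698). Its difference was -1.07 (SE 0.47), with an unadjusted limma p of 0.0552.

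Apoe is the lipoprotein ligand abundant in macrophages. It gave 12.75, 11.14 and 12.06 in Ocn+ arrays and 13.75, 12.55, 12.12 and 11.54 in Osx+ arrays. The groups overlapped over most of their range. The difference was -0.51 (SE 0.58, 95% interval -1.87 to 0.86, limma adjusted p = 0.999), and it moved to -0.084 on leaving out Osx+ replicate 1, to -0.085 on leaving out Ocn+ replicate 2, and to -0.89 on leaving out Ocn+ replicate 1.

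**Figure D3:**
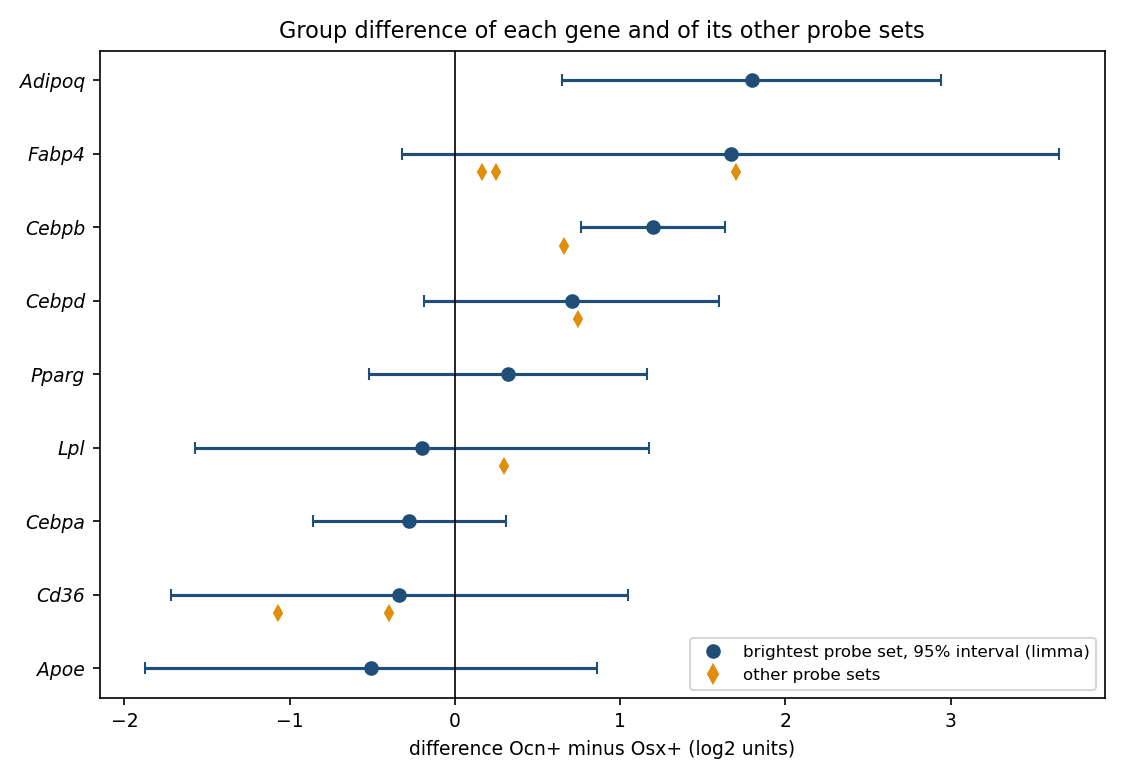
Difference Ocn+ minus Osx+ in log2 units (horizontal axis) for each gene, with the limma 95% interval of the brightest probe set (blue circles) and the differences of the other probe sets (orange diamonds). Intervals lie wholly above 0 for Adipoq and Cebpb and include 0 for the other 7 genes.

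Macrophage markers stood beside these lower values. Of 18 listed markers 17 were measured and 14 had a difference below 0, 7 of them with an unadjusted limma p under 0.05, with 0 called. Their mean log2 signal was 8.95 to 9.90 in Ocn+ arrays and 10.00 to 11.07 in Osx+ arrays, highest in Osx+ replicate 1 and lowest in Ocn+ replicate 2, which were also the extremes of Apoe. Lpl and Cd36 were split between the Osx+ arrays of high macrophage mean. In Osx+ replicate 1, where that mean was highest (11.07), Lpl (9.05) and Cd36 (8.75) had their lowest values of all arrays. In Osx+ replicate 2, where it was 11.02, Lpl (11.73) and Cd36 (11.03) had their highest. Markers of platelets, which also carry CD36 protein, had 4 of 6 differences below 0 and a median of -0.11. Ppbp was at -2.29 (SE 0.53) and Pf4 at -1.11 (SE 0.48), while Itga2b was at 0.41, Gp5 at 0.22, Gp9 at -0.12 and Gp1bb at -0.10. Whether these cells contributed to Apoe, Lpl or Cd36 was not tested.

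Granulocyte markers stood beside Cebpb. Of 14 measured, 12 had a difference above 0, 8 of them with an unadjusted limma p under 0.05 and 0 called. The groups did not overlap for 9 of the 14, beside 6.90% of all genes. Ctsg differed by 4.29 (SE 1.05) and Prtn3 by 3.61 (SE 0.99). The list had mean log2 signals of 10.34 to 10.50 in Ocn+ arrays and 7.35 to 10.00 in Osx+ arrays. Within the Osx+ group the orders differed: the granulocyte mean was lowest in replicate 4 (7.35), where Cebpb was highest (11.27). The groups also did not overlap for 9 of the 18 endothelial markers, while 14 of 17 macrophage markers had a difference below 0. The part of granulocytes or of these other cells in the Cebpb difference was not tested.

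Other genes of the adipogenic pathway gave 0 calls in either direction. Among 27 measured regulators 18 had a difference above 0, with a median of 0.23 and an unadjusted p under 0.05 for 2. Gata2, which restrains adipogenesis and is also a factor of blood progenitors and mast cells, was 9.70, 9.69 and 9.40 in Ocn+ arrays and 7.63 to 7.97 in Osx+ arrays (difference 1.84, SE 0.17, limma adjusted p = 0.108). Stat5b, a transducer of growth hormone signals, differed by 0.57 (SE 0.14, adjusted p = 0.689), Ppargc1b by 0.73 (SE 0.33) and Klf15 by 0.45 (SE 0.21). The mean of this list was 9.31 to 9.37 in Ocn+ and 9.04 to 9.26 in Osx+ arrays. Of 5 measured relatives and partners of C/EBP proteins 3 were above 0 and 0 had an unadjusted p under 0.05 by limma, with Cebpg at -0.07 (SE 0.27), Ddit3 at 0.22 (SE 0.44), Trib1 at 0.12 (SE 0.17), Trib2 at 0.20 (SE 0.21) and Trib3 at -0.86 (SE 0.66).

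Genes of mature fat cells and lipid droplets were split, with 15 of 28 above 0, a median difference of 0.05 and 0 with an unadjusted p under 0.05. Plin1, Cfd, Agpat2, Acsl1 and Adrb3 were not analysed here. The hormone-sensitive lipase Lipe differed by 0.74 (SE 0.34), the glucose transporter Slc2a4 by 0.54 (SE 0.29), the seipin gene Bscl2 by 0.25 (SE 0.15) and the caveolin Cav1 by -0.33 (SE 0.20), none of them called. Leptin (Lep) and the droplet protein Cidec, chosen after their values were seen, stood at 3.76 to 4.04 and 3.91 to 4.28 over all arrays, near the low end of the scale. The list mean overlapped, at 8.40 to 8.52 in Ocn+ and 8.29 to 8.51 in Osx+ arrays. Whether Adipoq differs from these genes in its shift between groups was not tested.

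Lipoprotein and fatty acid genes gave 7 of 16 above 0 and a median of -0.07. The fatty acid transporter Slc27a1 differed by 0.63 (SE 0.25) and the binding protein Fabp3 by 0.63 (SE 0.32), while Fabp5 differed by -0.51 (SE 0.21) and the lysosomal lipase Lipa by -0.43 (SE 0.25). Markers of adipogenic marrow stroma, the cells that express Adipoq without storing fat, had 11 of 14 differences above 0 and a median of 0.27. Haptoglobin (Hp) was 10.17, 10.00 and 10.43 in Ocn+ arrays and 8.04 to 9.21 in Osx+ arrays (difference 1.68, SE 0.31, limma adjusted p = 0.689). Gas6, a ligand of receptor kinases, differed by 0.84 (SE 0.32). Hp and Gas6 had the smallest p of this list. Lepr differed by only 0.35 (SE 0.82), and the 3 markers below 0 were Vcam1 (-0.37), Kitl (-0.28) and Il7 (-0.26). The mean of these markers was 9.32 to 9.52 in Ocn+ and 8.74 to 9.32 in Osx+ arrays, and its part in the Adipoq difference was not tested.

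**Figure D4:**
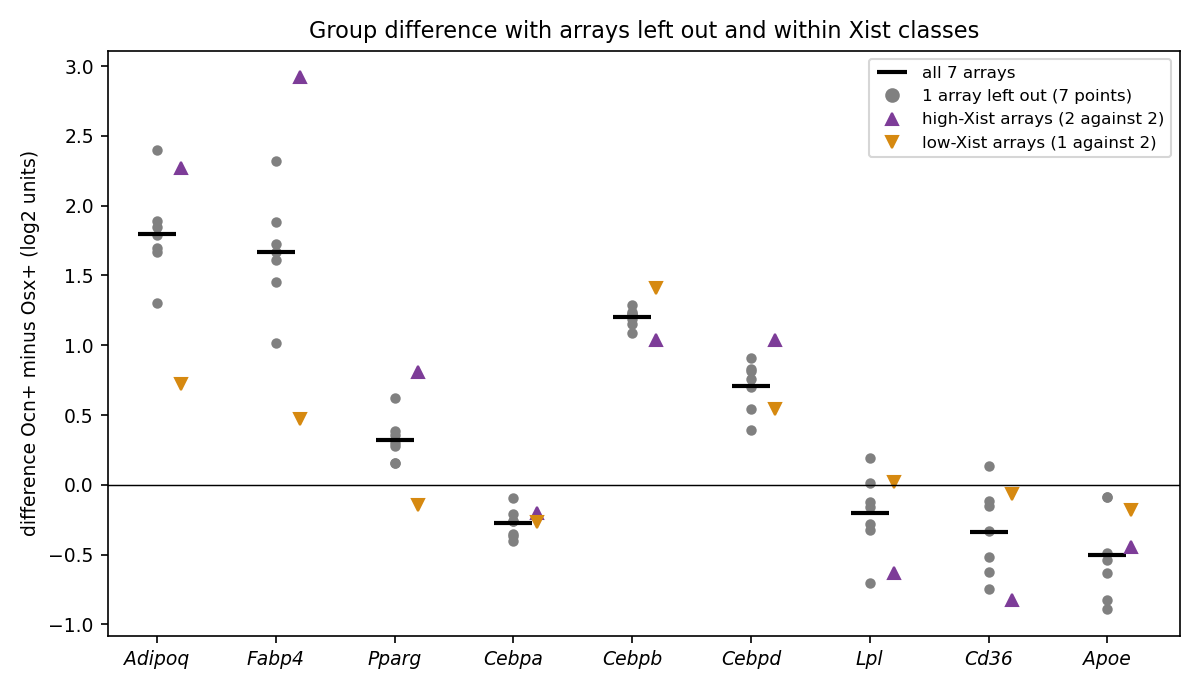
Difference Ocn+ minus Osx+ in log2 units (vertical axis) for each gene over all arrays (black bars), with 1 array left out at a time (grey circles) and within the high-Xist (purple triangles, 2 against 2) and low-Xist arrays (orange triangles, 1 against 2). All points of Cebpb lie between 1.04 and 1.41, while those of Lpl and Cd36 lie on both sides of 0 and Fabp4 runs from 0.47 to 2.92.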

How the data were processed

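The deposited values are log2 signals, which the authors computed with RMA, per the submitters' processing notes. That method equalizes the distributions of arrays, so a change in total RNA per cell is not visible. Its version and the genome build were not given in the sources used here. RNA was Trizol-extracted and amplified with NuGEN Ovation V2, per the labels' protocols, which favours transcript 3′ ends. Of 22690 probe sets, 20380 had 1 symbol in the platform annotation and were used, 691 had several and 1555 had none listed, besides 64 controls. Symbols were updated by Entrez identifier (20351 matched).

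Groups came from sample titles. The fit was limma 3.58.1 in R 4.3.3 (lmFit and eBayes, 2-sided, no covariate) on 12393 genes. "Called" means an adjusted p under 0.05. Simulated on 12393 genes, the Ocn+ minus Osx+ fit found 26.1% of genes shifted by 1 log2 unit, 67.0% for a shift of 2 and 91.5% for a shift of 4, and 6.75 calls per run were false. Array number limits the precision.

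Named beyond the 9 genes were the genes of smallest p per list (2 per cell type list, 4 per pathway list, of which only some are printed) and the 3 nearest profiles of the 3 genes of largest SD. Outside this rule were Sp7, Cebpg, Lep, Cidec, Itga2b, Gp5, Gp9, Gp1bb, Lepr, Vcam1, Kitl and Il7. Genes and lists were chosen with earlier results of these data known. Alternatives were the replicate number as a block, each array left out, filters on dim genes, other normalization, prior, weights, probe set rules and thresholds, and the Xist class.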

Additional observations from a re-analysis of the deposited data

Results flagged for a closer look

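Of 73 sets of 4 Osx+ values tested with Dixon's criterion, 5 held an array far from the others, and chance gives about 5% of groups. The third Cd36 probe set was 8.21 in Osx+ replicate 2, with the other Osx+ arrays at 6.70 to 6.84. A dim Fabp4 probe set was 4.23 in Osx+ replicate 3, with the others at 3.99 to 4.02. Lipe was 7.18 in Osx+ replicate 1, with the others at 5.99 to 6.18. Ebf1, an adipogenic and B cell factor, was 6.75 in Osx+ replicate 1, with the others at 9.87 to 10.02. Prtn3, a granule protease of neutrophil precursors, was 9.78 in Osx+ replicate 2, with the others at 5.58 to 6.20.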

How the results depend on the processing

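Under the alternatives tried, Cebpb, Cebpd, Fabp4, Adipoq, Cebpa and Apoe kept the sign of their difference, and Lpl, Cd36 and Pparg did not in every one. Lpl was -0.70 to 0.19 with 1 array left out, 0.050 with the mean of its probe sets and 0.023 among low-Xist arrays. Cd36 was -0.74 to 0.13 with 1 array left out, and Pparg was -0.14 among low-Xist arrays. With array weights limma called 97 of the 12393 genes (78 higher in Ocn+ cells) and 1 of the 9, Cebpb. Leaving out 1 array gave 0 to 3 called genes (3 without Osx+ replicate 2 and 3 without Osx+ replicate 3), none of them among the 9. With array weights an unadjusted limma p under 0.05 was found for 2200 genes (17.8%) and 5 of the 9. With the Xist class as a term it was found for 1988 genes (16.0%) and 4 of the 9. Leaving out 1 array gave 2 to 4 of the 9 without overlap: Cebpd was added without Ocn+ replicate 2, where 10.9% of all genes did not overlap, Pparg and Lpl without Osx+ replicate 1, where 15.1% of all genes did not overlap, and Fabp4 and Cebpd without Osx+ replicate 3, where 13.1% did not. Adipoq had no value with genes under the 25th percentile left out, nor Adipoq and Pparg with genes under the median left out. Deviations from group means correlated at 0.626, 0.447 and -0.304 for replicate numbers 1, 2 and 3. Across the groups, all such correlations were positive between arrays of the same Xist class (0.407 to 0.626). Between arrays of unlike class all were negative (-0.684 to -0.304). Ocn+ replicates 2 and 3 correlated most with Osx+ replicate 4 (0.504 and 0.568). Whether the numbers pair the arrays is not settled by so few values. With the replicate block 0 genes were called and Cebpb differed by 1.29 (limma adjusted p = 0.442). The dim signals of Adipoq and Pparg limit what their differences show.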
